A study of Mus musculus with 2 samples.

Results

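The 9 chemokine receptor genes Ccr1, Ccr2, Ccr3, Ccr7, Ccr9, Cxcr2, Cxcr3, Cxcr4 and Cx3cr1 were read out of 43346 Ensembl gene rows in total RNA-seq tables of mouse marrow progenitors. They were chosen by name and matched through their Ensembl identifiers, and all 9 were found in both tables. The 2 libraries, replicate 1 and replicate 2, form a single group of primary cells labelled megakaryocyte progenitor (CFU-Meg, the colony-forming progenitor of platelet-producing cells). The cells are of male adult C57BL/6J origin at 5 to 6 weeks, with no treatment or engineered allele named in the labels, and each library began with 1 ng of RNA. Both biosamples are listed under a single donor, and nothing says that they came from separate animals, so differences between the libraries may be technical. There is no second condition: the values below are levels within this group, and differences are between its libraries.

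Chemokine receptors are G protein-coupled receptors that steer blood cells along gradients of small secreted proteins, the chemokines. In the marrow, Cxcr4 holds progenitors and immature myeloid cells near stromal cells that secrete its ligand Cxcl12, while Cxcr2 and Ccr2 promote the release of neutrophils and monocytes into the blood. Other members mark more differentiated cells: Ccr3 eosinophils, Cxcr3 activated T and NK cells, Ccr7 lymphocytes and mature dendritic cells, and Ccr9 thymus- and gut-homing lymphocytes and plasmacytoid dendritic cells.

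The libraries held 82746658 expected counts (reads after division among features) in replicate 1 and 75652762 in replicate 2. The label was set against 8 megakaryocyte marker genes: their TPM (a level per transcript length, scaled to a fixed total in each library) summed to 9.13 in replicate 1 and 5.38 in replicate 2. Of these genes 2 of 8 reached 1 TPM in both libraries, and Tubb1, the platelet tubulin, had no reads in either. The 8 neutrophil lineage markers summed to 13315 and 12006 TPM in replicates 1 and 2, and all 8 reached 1 TPM in both. The 8 monocyte markers summed to 2971 and 3407 TPM, of which Ly6c2 alone gave 2767 and 3120, and 7 of 8 reached 1 TPM in both. The 6 mast cell and basophil markers summed to 127 and 142 TPM with 6 of 6 at 1 TPM or more in both. The markers therefore go against the label, and the cells are called here the progenitors labelled CFU-Meg. In bulk RNA, a difference in the number of cells that express a gene and a difference in RNA per cell cannot be told apart.

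Cxcr4 was the most abundant receptor of the set, Ccr2 came next, and the order was the same in both libraries, except that Ccr9 and Ccr3 were level at 0.20 TPM in replicate 2. Cxcr4 and Ccr2 together made up 90.8% of the summed TPM of 25 typical and atypical chemokine receptor genes in replicate 1 and 90.7% in replicate 2. Cx3cr1, Cxcr2 and Ccr1 lay between 1 and 10 TPM. Ccr9, Ccr3, Cxcr3 and Ccr7 lay below 0.5 TPM in both libraries. In all, 5 of 9 members reached 1 TPM in both libraries, beside 46.2% of all 21474 protein-coding genes, so the count of detected members is close to the share for all genes. The median member stood at 2.11 TPM in replicate 1 and 1.86 TPM in replicate 2, beside 0.62 and 0.54 TPM for the median protein-coding gene.

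**Figure D1:**
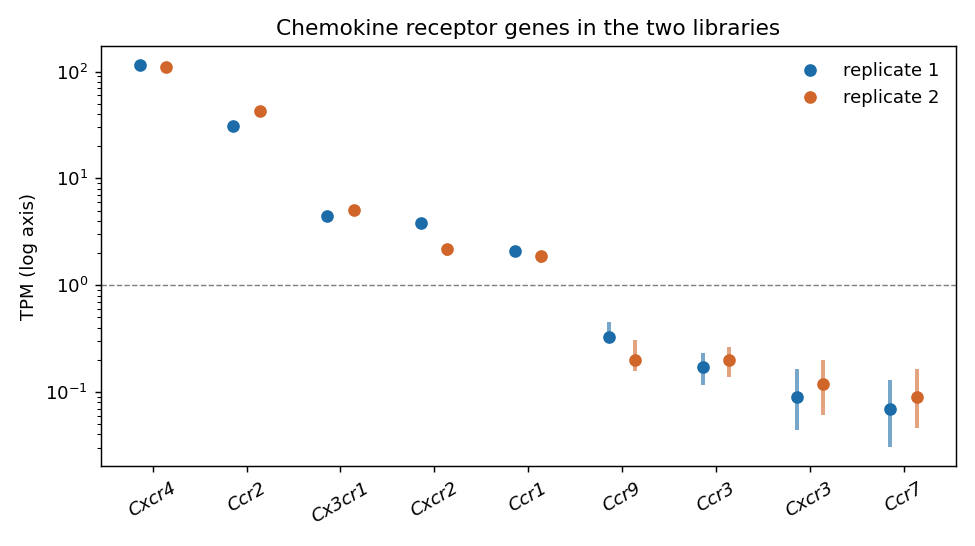
TPM of the 9 chemokine receptor genes on a log axis, ordered by mean level, with replicate 1 and replicate 2 as separate points and the deposited credibility interval of each as a bar (hidden behind the point where narrow). The dashed line marks 1 TPM, which 5 members exceed in both libraries, and the levels run from 114 TPM for Cxcr4 to 0.07 TPM for Ccr7 in replicate 1.

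Cxcr4, the receptor that retains progenitors in the marrow (ENSMUSG00000045382.6, GRCm38 chromosome 1, 128588199 to 128592293, minus strand), stood at 114 TPM in replicate 1 and 111 TPM in replicate 2. These levels rest on 11353 and 10439 expected counts, and the mean was 113 ± 2.15 TPM (SD, n = 2). Of 21474 protein-coding genes, 97.6% had a lower mean TPM. The authors' credibility intervals ran between 110.0 and 115 TPM for replicate 1, between 107 and 111 TPM for replicate 2, and overlapped.

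Its reads were divided between 2 annotated transcripts whose coding sequences part after 15 bases. The first 45 coding bases of both are shown because the difference lies in the start of the receptor. Capitals mark bases that are coding in the first transcript and not in the other, from GENCODE M21 on GRCm38, chromosome 1, minus strand, with the coding start at 128592209.
ENSMUST00000052172.6: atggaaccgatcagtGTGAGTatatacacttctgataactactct
ENSMUST00000142893.1: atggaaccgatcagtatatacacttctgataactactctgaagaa
The first transcript carries 6 more bases at the end of its first coding exon, so the reading frame is the same on both sides of the junction. ENSMUST00000052172.6 took 92.7% of the gene's TPM in replicate 1 and 95.6% in replicate 2. ENSMUST00000142893.1 took 7.32% and 4.41%, from 396 and 217 expected counts, and its annotated coding sequence of 818 bases, beside 1077 in the other, stops where the model ends. The form with the 6 bases was thus the higher in both libraries, although a division of reads between models of such unequal length (1805 and 902 bases) is uncertain. For the minor form the interval was 5.94 to 11.3 TPM (replicate 1) or 3.47 to 6.18 TPM (replicate 2), with an overlap.

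The sequence around the start of Cxcr4 held more CG dinucleotides than that of the other members. RefSeq windows on GRCm38.p6, from 250 bases before to 50 bases after the gene start, were at hand for 8 members, all but Ccr7. The windows of the 2 most abundant members are shown in the direction of the gene, with every CG dinucleotide in capitals. Cxcr4 lies at chr1:128592250-128592549 on the minus strand and Ccr2 at chr9:124101933-124102232 on the plus strand. ENSMUST00000165984.2, the Ccr2 model given most of the gene's TPM, has 1 exon of 3515 bases with its coding end at 124106803. That model therefore starts downstream of the Ccr2 window, and the sequence at its own start was not examined.
Cxcr4: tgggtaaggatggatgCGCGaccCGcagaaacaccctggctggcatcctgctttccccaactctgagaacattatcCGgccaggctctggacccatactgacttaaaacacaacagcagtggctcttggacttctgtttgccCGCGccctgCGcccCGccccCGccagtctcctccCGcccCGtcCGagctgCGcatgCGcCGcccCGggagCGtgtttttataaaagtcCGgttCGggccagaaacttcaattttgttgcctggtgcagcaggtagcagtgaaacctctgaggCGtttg
Ccr2: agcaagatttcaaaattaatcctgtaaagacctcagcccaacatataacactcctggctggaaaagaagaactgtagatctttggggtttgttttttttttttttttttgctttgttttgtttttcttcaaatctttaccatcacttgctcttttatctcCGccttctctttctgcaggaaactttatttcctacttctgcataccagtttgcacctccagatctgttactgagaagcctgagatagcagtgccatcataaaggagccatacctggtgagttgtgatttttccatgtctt
The Cxcr4 window held 20 CG dinucleotides and the Ccr2 window 1. The other 6 windows held 5 (Cx3cr1), 4 (Ccr9 and Cxcr3), 2 (Cxcr2) and 1 (Ccr1 and Ccr3). Over 32851 windows of the same length the median was 7, with quartiles of 3 and 20, so Cxcr4 lay at the upper quartile and the other members below the median.

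Short motifs were counted on both strands of the 8 windows. GGGCGG, the GC box, occurred 3 times in the Cxcr4 window and in no other member's, beside 35.7% of all windows that hold it. TATAAA, the TATA box, occurred at 1 place in Cxcr4, where a match on each strand overlaps the other, and in no other member's window, beside 13.6% of all windows. CCAAT occurred once each in the windows of Cx3cr1, Cxcr2 and Ccr3, beside 37.4% of all windows. GAGGAA, the core bound by the myeloid factor PU.1, occurred 2 times in Cxcr2 and once each in Ccr1, Ccr3 and Cxcr3, beside 28.3% of all windows. Neither of the 2 most abundant members held a GAGGAA or a CCAAT in this window. These matches describe letters only.

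Ccr2, the receptor for Ccl2 that lets monocytes leave the marrow (ENSMUSG00000049103.9, chromosome 9, 124101950 to 124113557, plus strand), stood at 31.1 TPM in replicate 1 and 42.3 TPM in replicate 2 (mean 36.7 ± 7.91, SD, n = 2). The expected counts were 6297.55 and 7892.12, not whole because some reads were shared out among features, and the deposited intervals, 29.8 to 31.4 TPM and 40.7 to 42.5 TPM, did not overlap. For each of 14304 genes, the split of its reads was set against the TMM-scaled library sizes in a two-sided exact binomial test, and p was adjusted by the Benjamini-Hochberg method over all of them. This test sets 2 libraries against counting error and says nothing about a condition. Ccr2 had a log2 ratio of replicate 1 over replicate 2 of -0.47 (adjusted p 5.26e-83 by that exact test), short of the limit of 1 used for a call.

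The sign of the Ccr2 ratio was shared by most related lists. All 8 monocyte markers had negative log2 ratios, with a median of -0.46, and 1 of 8, the lipopolysaccharide co-receptor Cd14, passed the limits at -1.47. Over all 14304 genes 7.66% passed them, and 1 of 8 is too few to set apart from that share. Irf8, the transcription factor of monocyte progenitors, stood at 33.5 TPM in replicate 1 and 49.3 TPM in replicate 2. Of 5 eosinophil markers tested 1 had a positive log2 ratio (median -0.69), of 8 neutrophil lineage markers 2, of 30 chemotaxis effectors 3 (median -0.12) and of 23 G protein and desensitisation genes 6 (median -0.10). Other lists went the opposite way. All 4 megakaryocyte markers tested had positive log2 ratios (median 0.16), as did 3 of 5 dendritic cell markers (median 0.10) and 2 of 3 T and NK cell markers (median 0.47). Over all 14304 genes the median log2 ratio was 0.00. The part of these genes in the Ccr2 difference was not tested.

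Most of the TPM of Ccr2 was assigned to a transcript with a single exon. ENSMUST00000165984.2, which has 1 exon, took 88.0% of the gene's TPM in replicate 1 and 85.6% in replicate 2. ENSMUST00000171719.3, a multi-exon form, took 11.0% and 13.2%. ENSMUST00000168841.1 took 1.05% and 1.25%, and ENSMUST00000055918.6 had no expected counts in either library. All 4 models share a coding sequence of 1119 bases, so the transcripts differ only outside it. A read that lies within an exon shared by several forms does not tell them apart.

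Cx3cr1, the fractalkine receptor of monocytes and their dendritic and macrophage progeny (ENSMUSG00000052336.6, chromosome 9, 119901616 to 120069879, minus strand), stood at 4.43 TPM in replicate 1 and at 5.02 in replicate 2 (mean 4.73 ± 0.42, SD, n = 2), from 988 and 1039 expected counts. The deposited intervals, 4.11 to 4.65 and 4.65 to 5.26 TPM, met without overlapping, and the mean TPM of Ccr2 was 7.77 times that of Cx3cr1. The log2 ratio of replicate 1 over replicate 2 was -0.22 (adjusted p 0.00138, exact binomial test). All of its TPM was assigned to ENSMUST00000064165.3, and the second model in the tables, ENSMUST00000177637.1, had no expected counts. In GENCODE M21, 78 exonic bases of the gene also lie in Gm33858 on the opposite strand, a gene not analysed here.

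Cxcr2, the receptor through which Cxcl1 and Cxcl2 mobilise neutrophils (ENSMUSG00000026180.8, chromosome 1, 74153989 to 74161246, plus strand), stood at 3.82 TPM in replicate 1 and 2.17 TPM in replicate 2 (mean 3.00 ± 1.17, SD, n = 2). The expected counts were 573 and 338, and the deposited intervals, 3.44 to 4.09 TPM and 1.89 to 2.39 TPM, did not overlap. The log2 ratio of replicate 1 over replicate 2 was 0.61 (adjusted p 2.36e-09, exact binomial test), short of the limit of 1. Of the 8 neutrophil lineage markers, 2 had positive log2 ratios and 6 negative ones, with a median of -0.17. Among the primary granule genes, Mpo and Elane stood at 0.16 and 0.36 on this log2 scale, while Ctsg and Prtn3 stood at -0.22 and -0.11. The part of these genes in the Cxcr2 difference was not tested.

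As the reads were assigned, the lower Cxcr2 level of replicate 2 lay in 1 of its 2 transcripts. ENSMUST00000027372.7 had 297 expected counts and 2.29 TPM in replicate 1, against 66.0 expected counts and 0.55 TPM in replicate 2. ENSMUST00000106899.3 had 276 and 272 expected counts, or 1.53 and 1.62 TPM. The intervals of the first, 1.77 to 2.71 TPM (replicate 1) and 0.13 to 0.90 TPM (replicate 2), did not overlap, and those of the other did. Both models share a coding sequence of 1077 bases, so the difference, as assigned, concerns the untranslated parts of the models. A read within an exon shared by both models does not tell them apart, so this division is uncertain.

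**Figure D2:**
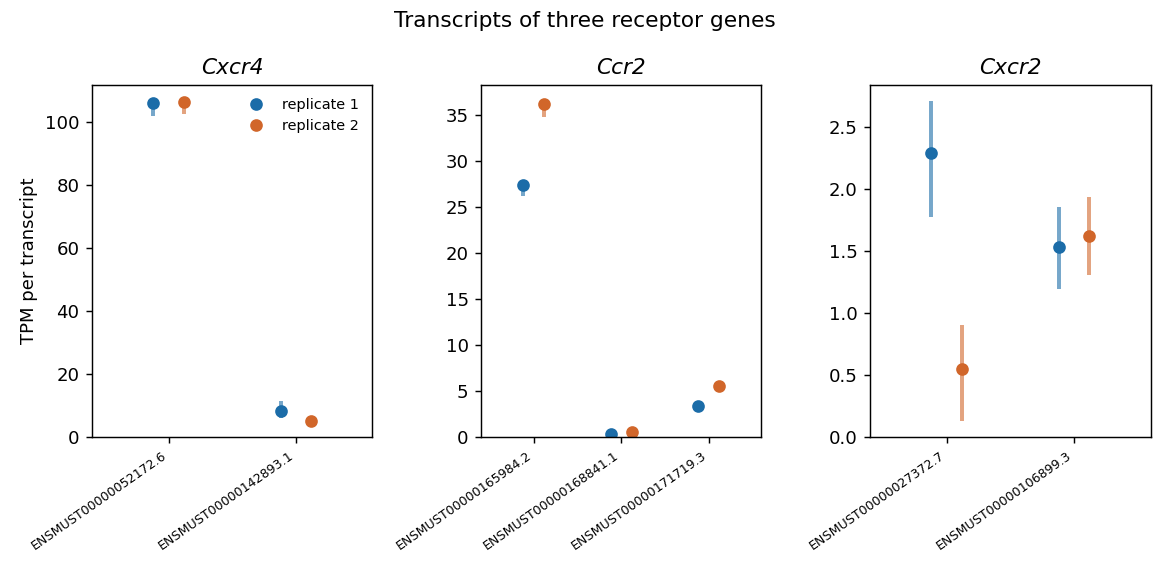
TPM of the transcripts of Cxcr4, Ccr2 and Cxcr2 that had a TPM above 0 in either library, with replicates 1 and 2 as separate points and the deposited credibility intervals as bars. A single transcript leads Cxcr4 and Ccr2 in both libraries, while the 2 transcripts of Cxcr2 change order, 2.29 against 1.53 TPM in replicate 1 and 0.55 against 1.62 TPM in replicate 2.

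Ccr1, an inflammatory receptor of neutrophils and monocytes that binds Ccl3, Ccl5 and, in the mouse, Ccl6 and Ccl9 (ENSMUSG00000025804.4, chromosome 9, 123962124 to 123968692, minus strand), stood at 2.11 TPM in replicate 1 and 1.86 TPM in replicate 2 (mean 1.99 ± 0.18, SD, n = 2). The deposited intervals overlapped, and the log2 ratio of replicate 1 over replicate 2 was 0.14 (adjusted p 0.312, exact binomial test on 353 and 289 reads). Its highest value, 2.11 TPM, lay just under the lowest value of Cxcr2, 2.17 TPM, so these neighbours in the order were separated by less than the spread of Cxcr2.

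The receptors of eosinophils and lymphocytes were low. Ccr3, the eotaxin receptor (ENSMUSG00000035448.8, chromosome 9, 124021972 to 124031689, plus strand), stood at 0.17 TPM in replicate 1 and 0.20 TPM in replicate 2, from 33 and 36 expected counts. Cxcr3, which binds Cxcl9 and Cxcl10 (ENSMUSG00000050232.6, chromosome X, 101731535 to 101734269, minus strand), stood at 0.09 and 0.12 TPM, from 9 and 11 expected counts. Ccr7, which binds Ccl19 and Ccl21 (ENSMUSG00000037944.8, chromosome 11, 99144196 to 99155077, minus strand), stood at 0.07 and 0.09 TPM, from 8 and 10 expected counts. The ranges of Ccr9 and Ccr3 met at 0.20 TPM, and those of Cxcr3 and Ccr7 at 0.09 TPM. Cxcr3 lay above Ccr7 within each library, by less than the width of their deposited intervals, which were 0.044 to 0.16 TPM and 0.030 to 0.13 TPM in replicate 1 and overlapped.

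The marker genes of the cells that carry these receptors differed in level. Of 6 eosinophil markers, 5 reached 1 TPM in both libraries, and the list summed to 40.1 TPM in replicate 1 and to 56.9 in replicate 2. Among them Il5ra, the interleukin-5 receptor chain, stood at 0.07 and 0.18 TPM, as low as Ccr3. None of 7 T and NK cell markers reached 1 TPM in both libraries, the list summed to 1.75 and 1.16 TPM, and Cd3e, Cd3g and Cd8a had no reads. None of 5 B cell markers reached 1 TPM in either library, the list summed to 0.56 and 0.65 TPM, and Ms4a1 and Pax5 had no reads. For Pax5 the deposited intervals nonetheless ran from 0.30 to 1.14 TPM in replicate 1 and from 0.32 to 1.21 TPM in replicate 2, above its TPM of 0. Of 6 dendritic cell markers 3 reached 1 TPM in both libraries, with sums of 32.6 and 33.4 TPM over the list. Levels within it differed: Siglech, a marker of plasmacytoid dendritic cells, stood at 0.00 and 0.04 TPM, but Bst2 at 6.74 and 4.89 TPM. The part of these cell types in the receptor levels was not tested.

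Ccr9, the receptor for the thymic and gut chemokine Ccl25 (ENSMUSG00000029530.11, chromosome 9, 123678439 to 123784330, plus strand), was the only one of the 7 members tested that passed the limits between the libraries. It had 83 expected counts in replicate 1 and 31 in replicate 2, with a log2 ratio of 1.22 (adjusted p 4.1e-05, exact binomial test). Over all 14304 genes 7.66% passed the same limits, 5.04% higher in replicate 1 and 2.62% higher in replicate 2, and 1 of 7 members is too few to set apart from that share. Without a limit on the ratio, 4 of 7 members (Ccr2, Cx3cr1, Cxcr2 and Ccr9) passed at an adjusted p under 0.05, beside 59% of all genes. Cxcr3 and Ccr7 were not tested because their counts fell below the filter.

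In TPM the Ccr9 libraries stood closer together than in reads. Its TPM was 0.33 in replicate 1 and 0.20 in replicate 2, a ratio of 1.65, while the ratio of expected counts was 2.68. All reads of replicate 1 were assigned to ENSMUST00000180093.1, a model of 4239 bases, and all reads of replicate 2 to ENSMUST00000166236.3, of 2830 bases, so each library was divided by another length. That assignment is uncertain at so few reads. In replicate 2 the 0.20 TPM of ENSMUST00000166236.3 lay above its own deposited interval, which ended at 0.15 TPM. The deposited intervals of the gene, 0.29 to 0.46 TPM and 0.16 to 0.31 TPM, overlapped. In GENCODE M21, 1932 exonic bases of Ccr9 also lie in exons of AC165425.1 on the opposite strand, which had no expected counts in either library, and 269 lie in Gm17200 on the same strand, which had 0 expected counts in replicate 1 and 40.38 in replicate 2. The replicate with fewer Ccr9 reads is thus the one in which Gm17200 was given reads, and the part of this division in the Ccr9 difference was not tested. Dividing the counts by 4, to allow for reads that are copies of a molecule, took the adjusted p of Ccr9 to 0.121 (exact binomial test).

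Of the 9 members, 4 lie in or just upstream of a receptor cluster on chromosome 9, and neighbours there differed widely in level. On GRCm38, Ccr1l1, Ccr3 and Ccr2 follow Ccr1 in that order, the start of Ccr2 lying 133 kb from that of Ccr1, with Ccr9, Cxcr6 and Xcr1 upstream. Ccr2 stood at 31.1 and 42.3 TPM in replicates 1 and 2, while Ccr3, which ends 70.3 kb before it, stood at 0.17 and 0.20 TPM. Ccr1l1, a gene that resembles Ccr1 and lies 8.55 kb from it, had 0 and 6 expected counts.

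**Figure D3:**
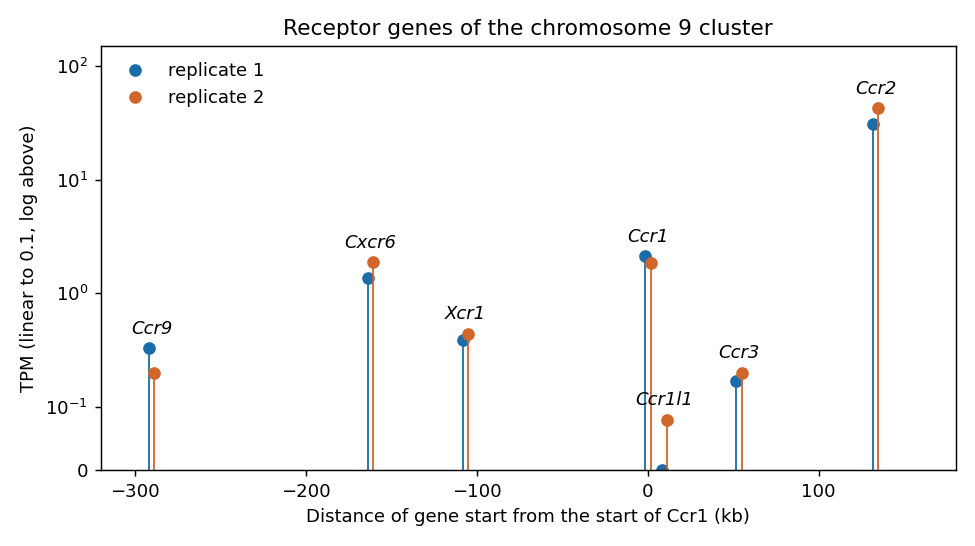
TPM of 7 chemokine receptor genes of chromosome 9 against the distance of the gene start from that of Ccr1 in kb, with the vertical axis linear up to 0.1 and logarithmic above. Points are replicates 1 and 2, and Ccr2, at 31.1 and 42.3 TPM, stands above the other 6 genes shown, with Ccr3, the nearest of them, at 0.17 and 0.20 TPM.

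Outside the set, the other receptors of the family were low. Of 10 other chemokine receptors, 1 reached 1 TPM in both libraries, Cxcr6 at 1.36 TPM in replicate 1 and 1.87 TPM in replicate 2. Xcr1, known from cross-presenting dendritic cells, stood at 0.39 and 0.44 TPM. Ccr4, Ccr6, Ccr8, Ccr10, Cxcr1 and Cxcr5 had no reads in either library. For Cxcr1, the closest relative of Cxcr2, 0 reads allow a level of at most 0.042 (replicate 1) or 0.045 TPM (replicate 2; 3 reads, counting error only), and this is no bound where reads fit Cxcr2 as well. Of 6 atypical receptors, which bind chemokines without the usual G protein signal, Ccrl2 alone reached 1 TPM in both libraries, at 1.31 and 1.65 TPM. Ackr4, a scavenger of Ccl19 and Ccl25, stood at 0.12 and 0.34 TPM, with a log2 ratio of -1.58 that passed the limits. Ackr3, which scavenges the Cxcr4 ligand Cxcl12, had no reads. Ackr1 had 0 and 1.

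Ligand genes of the receptors were expressed unevenly, and those of Ccr1 were the most abundant of the 14 listed. Ccl9 stood at 60.8 TPM in replicate 1 and 81.6 TPM in replicate 2, Ccl3 at 41.0 and 95.1 TPM, and Ccl6 at 5.59 and 10.5 TPM. Cxcl12, the ligand of the abundant Cxcr4 and a product of marrow stroma, stood at 0.18 and 0.41 TPM. Ccl25, the ligand of Ccr9, stood at 4.04 and 5.75 TPM, above its receptor. The eotaxin gene Ccl11 and the Cxcr2 ligand gene Cxcl1 had no reads. With 3 reads as the limit, Ccl11 could lie at 0.051 and 0.055 TPM at most in replicates 1 and 2, and Cxcl1 at 0.059 and 0.064 TPM. Ccl19 and Cx3cl1 had at most 13 reads in a library, and Cxcl9 stood at 0.15 and 0.20 TPM. In a list of 37 ligands, 9 reached 1 TPM in both libraries and 14 had no reads in either, and besides Ccl9 and Ccl3 the highest were Mif, a cytokine that also binds Cxcr2 and Cxcr4, at 232 and 193 TPM, and Ccl4 at 8.06 and 12.1 TPM.

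Several ligand genes differed between the libraries by more than 2-fold. Of 10 ligands tested for these receptors, 5 passed the limits as higher in replicate 2, beside 2.62% of all genes, and 1, Ccl5, as higher in replicate 1, beside 5.04%. Cxcl2 stood at 1.44 TPM in replicate 1 and 11.97 TPM in replicate 2, with a log2 ratio of -3.07 (adjusted p 3.33e-117, exact binomial test). Ccl2, the ligand of Ccr2, stood at 0.64 and 3.07 TPM, with a log2 ratio of -2.15. Cxcl10, Ccl3 and Cxcl12 had log2 ratios of -1.40, -1.26 and -1.27. Ccl5 went the other way at 1.78, from 47 and 11 reads. For their receptors the log2 ratio was -0.47 (Ccr2), 0.61 (Cxcr2), 0.14 (Ccr1) and -0.03 (Cxcr4). The difference between ligands and receptors was not itself tested, and the 10 ligands tested had a median log2 ratio of -1.07.

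**Figure D4:**
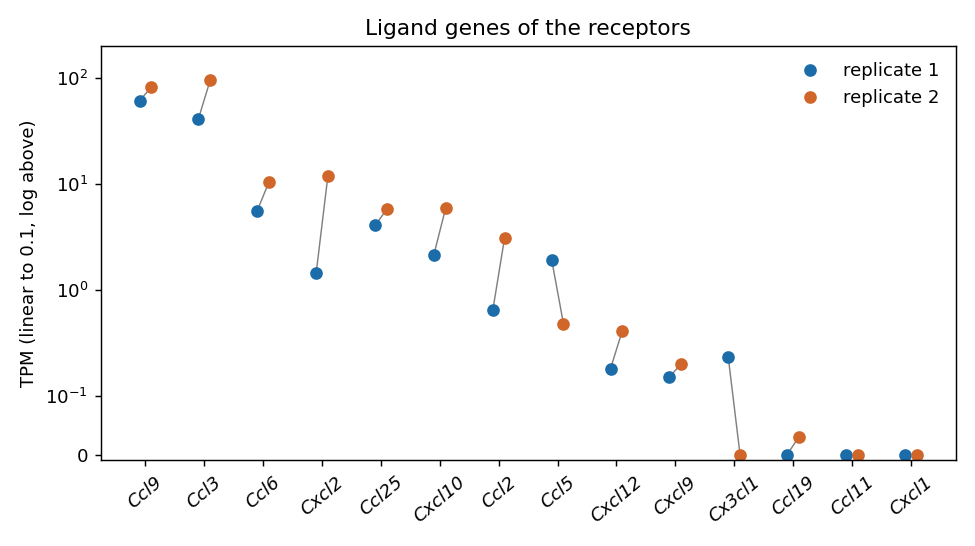
TPM of 14 ligand genes of the receptors in replicates 1 and 2, joined by a line for each gene, ordered by mean level, on an axis that is linear up to 0.1 and logarithmic above. Cxcl2 (1.44 and 11.97 TPM), Ccl2 (0.64 and 3.07 TPM) and Ccl3 (41.0 and 95.1 TPM) are higher in replicate 2, Ccl5 (1.92 and 0.48 TPM) is higher in replicate 1, and Ccl11 and Cxcl1 lie at 0.

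Most signalling genes that act below the receptors were detected. Gnai2, the inhibitory G protein alpha subunit through which chemokine receptors signal, stood at 137 TPM in replicate 1 and 150 TPM in replicate 2, whereas Gnai1 had no reads. The G protein subunits Gng5 and Gnb1 stood at 130 and 160 TPM and at 95.8 and 95.2 TPM, and Rgs19, which speeds the inactivation of such G proteins, at 136 and 140 TPM. Of 26 genes of G proteins and receptor desensitisation, 21 reached 1 TPM in both libraries. All 30 chemotaxis effectors did so, led by the GTPases Cdc42 at 251 and 272 TPM and Rac1 at 190 and 202 TPM, the actin regulator Coro1a at 107 and 152 TPM and the blood-cell GTPase Rac2 at 114 and 131 TPM. None of the 30 effectors passed the limits between the libraries by the exact binomial test, with a median log2 ratio of -0.12, while 1 of 23 G protein genes tested did, Gnb4, which was higher in replicate 1. The share that passed over all 14304 genes was 7.66%, and lists of this size do not set such counts apart from it.

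Receptors for other chemoattractants were mostly low. Of 18 such genes, 6 reached 1 TPM in both libraries. Ltb4r1, the leukotriene B4 receptor, stood at 7.61 TPM in replicate 1 and at 8.26 in replicate 2, the formyl peptide receptor Fpr2 at 4.97 and 7.22 TPM, the sphingosine-1-phosphate receptor S1pr4 at 3.50 and 3.97 TPM, and the UDP-glucose receptor P2ry14 at 3.39 and 2.58 TPM. The highest of them thus lay above Cx3cr1 and below Ccr2. S1pr1, which draws lymphocytes into the blood, was the only 1 of 13 tested to pass the limits, at 1.14 and 0.41 TPM, higher in replicate 1. The share over all 14304 genes was 7.66%, close to 1 of 13.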

How the data were processed

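Total RNA-seq of 2 libraries of a single group was used. The list of files that accompanies each library names mm10 and GENCODE M4; aligner, strand setting and versions were not given in the sources used here. The authors' expected counts are read estimates per feature, and a read that fits several features is shared out. The authors' TPM sums to the same total in each library over all rows, so abundant RNA elsewhere lowers it. The deposited FPKM served only as an alternative. The deposited score columns are credibility bounds of unstated level around the posterior mean, which a TPM may miss. The deposited percent is a transcript's part of its gene's TPM.

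Symbols and positions are from GENCODE M21 (GRCm38, which mm10 is built on), matched for 42462 of 43346 Ensembl rows (98.0%); its models can differ from M4. Rounded expected counts were filtered by filterByExpr and scaled by TMM (edgeR 4.0.16, R 4.3.3). A gene was called where the Benjamini-Hochberg adjusted p of the exact binomial test was under 0.05 and its log2 ratio, with a prior count of 2, was at least 1 in size. The steps were checked on simulated libraries that held counting error only. Between the real libraries genes varied beyond counting error, with a common coefficient of variation of 0.21 (edgeR), which that check does not cover. DESeq2 1.42.0 size factors were an alternative. The libraries held 82746658 and 75652762 expected counts. In replicate 1, a TPM of 1 was worth 99.4 reads for Cxcr4 and 255 for Ccr9. Limits for 0 reads take 3 reads.

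Named are all members, the 4 highest genes of each related list, the ligands of the receptors, and transcripts with 10% or more of their gene's TPM. Other transcripts and genes (such as Irf8, Ctsg, Prtn3, Gnb4, S1pr1, Ackr3 and Gnai1) were named after their values were seen. Results for some genes that the rule covers are not reported here. The members and lists were chosen with earlier results of these data known.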

Additional observations from a re-analysis of the deposited data

How the results depend on the processing

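The order of the 9 members, ties aside (Ccr9 and Ccr3 in replicate 2), was the same in all settings tried (posterior mean TPM, TPM rescaled over nuclear protein-coding genes, FPKM and each library alone). Rescaled TPM and FPKM multiply every member of a library by the same factor, so they could not change an order that both libraries share. In each setting 5 members reached 1 TPM, a count that the rescaled TPM could not lower because it raised every level. With a limit of 0.5 TPM the count was 5, and a limit of 2 TPM left 4. The median level of the members, 1.99 TPM, was 4.92 when TPM was rescaled over nuclear protein-coding genes and 1.5 in FPKM, since both change the scale of every gene; leaving out a library gave 1.86 to 2.11 TPM. The number of members called between the libraries, 1, was 0 with counts divided by 4 and 4 without a limit on the ratio, and 1 with DESeq2 size factors, with scaling by total counts and with no filter. The log2 ratio of Ccr9 was 1.07 with counts divided by 4 and 0.15 on the log2(TPM + 1) scale, which understates low genes. Cxcr4 changed sign, from -0.03 in counts to 0.039 on the log2(TPM + 1) scale, and was called in neither. Over all genes the calls numbered 1096, against 520 with counts divided by 4, 3382 of 19635 with no filter and 8446 without a limit on the ratio. Below 1 TPM the members rest on 8 to 83 reads a library, which limits what can be said of their order. No paired analysis was possible because there is a single group.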
